A study of Mus musculus with 6 samples.

Results

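A list of 10 genes of eosinophils, basophils and mast cells was followed through bulk RNA-seq of Tomato+ cells taken from mouse articular cartilage. The list holds Prg2, Epx, Ear1, Ear2 and Ear6, which encode eosinophil granule proteins, and Cpa3, Mcpt8, Prss34, Fcer1a and Ms4a2, which encode proteases and IgE receptor subunits of basophils and mast cells. The members were chosen by name as known genes of these cells, with earlier results of these data known. All 10 were among the 17854 genes measured. In the first group, called MSC-derived here, Prrx1-lineage mesenchymal stromal cells (MSCs) of inguinal white adipose tissue, marked by Prrx1-Cre; R26tdTomato, had been injected into the knee of male C57BL/6 mice whose osteoarthritis was induced by anterior cruciate ligament transection at 8 weeks of age, and the Tomato+ cells were later recovered from the repaired cartilage. In the second group, called endogenous here, the Tomato+ cells came from the articular cartilage of Prrx1-Cre; R26tdTomato mice of matched age and sex, also labelled C57BL/6, for which no surgery or injection is stated. Each group had 3 libraries, and all 6 were labelled as chondrocytes. The methods give 3 mice per group without saying that each library is a single mouse, so p-values measure the spread between these libraries. Host genotype, surgery and injection differed between the groups together with the origin of the cells, and these cannot be told apart. Prrx1-Cre marks limb mesenchyme, a lineage that does not form blood cells, and sorting used Tomato fluorescence, with no step against CD45+ cells stated.

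Eosinophils, basophils and mast cells are granule-bearing cells of type 2 immunity. Eosinophils store major basic protein, eosinophil peroxidase and ribonucleases in their granules, and their transcripts are most abundant in precursors in the bone marrow, where granules are filled. Basophils and mast cells display IgE on the high-affinity receptor FceRI, which is built of an alpha chain that binds IgE, a beta chain that amplifies the signal and a gamma chain that is shared with other Fc receptors. Basophils circulate, whereas mast cells mature in tissues, including the joint lining, and need the receptor Kit.

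Each library held 22060628 to 24881796 counts assigned to genes, so 3 counts, the limit that a count of 0 allows, stood for 0.121 to 0.136 CPM (counts scaled to a common library size). The cell type label was checked against marker genes. All 12 chondrocyte markers were lower in the MSC-derived libraries, with summed levels of 364 to 376 FPKM, the authors' measure of fragments scaled for transcript length and library size, against 14125 to 15149 in the endogenous libraries. All 10 leukocyte, 10 macrophage, 10 mature neutrophil, 6 granulocyte progenitor and 10 erythroid markers were higher. Summed levels were 2809 to 2848 against 102 to 134 FPKM for leukocyte markers, 11260 to 11530 against 29.7 to 43.4 FPKM for macrophage markers, and 114387 to 122215 against 3586 to 5996 FPKM for neutrophil markers. They were 1874 to 1987 against 215 to 278 FPKM for granulocyte progenitor markers and 37966 to 39074 against 5583 to 8322 FPKM for erythroid markers. Of these markers, 0 were without counts in all libraries of a group. Their part in the results below was not tested. Endogenous replicate 1 stood apart, with 3456 genes at 0 against 1334 and 1389 in the other endogenous libraries. Differences between libraries of a group were larger among the endogenous (biological coefficient of variation 35.3%) than among the MSC-derived libraries (6.78%).

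Of the 10 genes, 7 were higher in the MSC-derived cells, 0 were lower, and Cpa3, Fcer1a and Ms4a2 did not pass the test. The test was edgeR's quasi-likelihood test with Benjamini-Hochberg adjustment over 14289 genes and a threshold of 0.05, and positive log2 fold changes mean higher in MSC-derived cells. Over all genes tested, 31.3% were called higher and 30.3% lower. The median log2 fold change of the 10 genes was 2.14, against 0.05 over all genes tested. At an unadjusted p of 0.05, 7 of the 10 were higher and 0 lower, and DESeq2 and limma also called 0 lower. The ranges of the groups, in CPM scaled by trimmed mean of M-values (TMM), did not overlap for 8 of the 10 genes, all with the MSC-derived libraries higher, whereas 38.2% of all genes tested were separated in that direction. In bulk libraries, fewer cells of a type and less RNA per cell cannot be told apart.

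**Figure D1:**
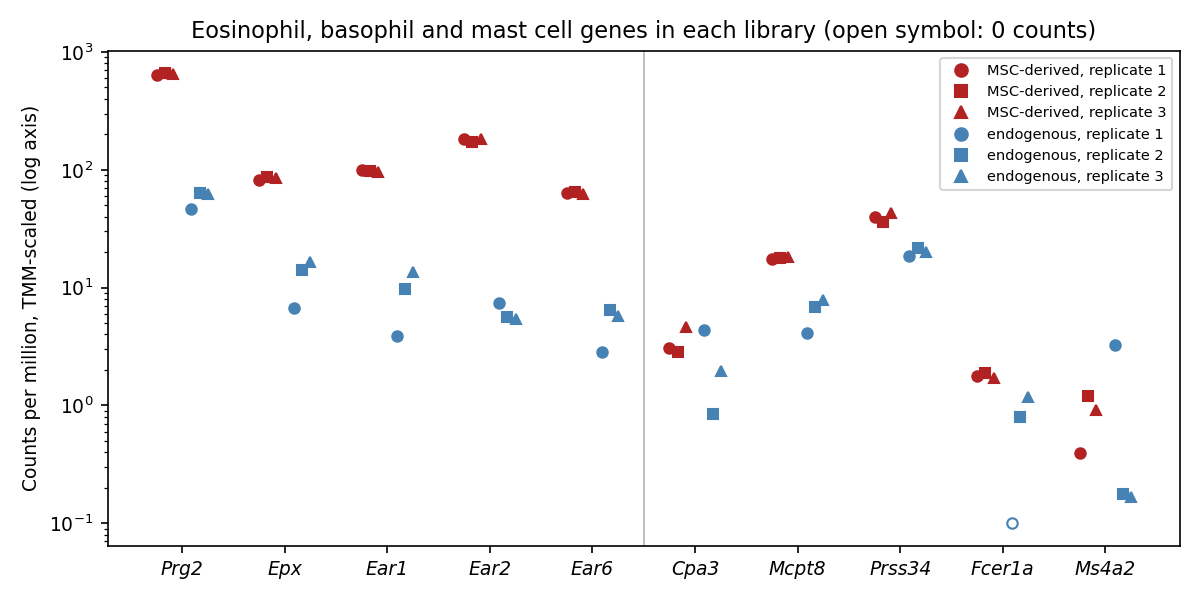
CPM after TMM scaling, on a log axis, for each of the 10 genes, with 1 symbol per library (red, MSC-derived; blue, endogenous; open symbol, 0 counts). The groups are separated for the 5 granule genes and for Mcpt8, Prss34 and Fcer1a, and overlap for Cpa3 and Ms4a2.

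The 5 granule genes were all higher in MSC-derived cells, against 31.3% of all genes tested, with log2 fold changes between 2.76 and 4.87. Their summed count was 27188, 26390 and 24467 in MSC-derived replicates 1 to 3 and 1525, 2260 and 2486 in endogenous replicates 1 to 3. This was 0.111% to 0.113% of all counts against 0.00651% to 0.00999%. The endogenous libraries therefore held these transcripts too, at a lower level.

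Prg2 (gene 19074) encodes major basic protein, the core of the eosinophil granule, and was the most abundant member. It had 16264, 16092 and 14748 counts among MSC-derived and 1051, 1444 and 1501 among endogenous libraries. Every MSC-derived library was far above every endogenous library, and the MSC-derived libraries lay close together. The level was 1031 ± 18.7 FPKM (SD, n = 3) in MSC-derived cells, against 84.3 ± 14.6 FPKM (SD, n = 3), and the log2 fold change was 3.49 (SE 0.13, edgeR adjusted p = 5.81e-07). Ranked by FPKM, Prg2 was between positions 80 and 85 of the 17854 genes in MSC-derived libraries and between 833 and 1067 in endogenous libraries.

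Epx (gene 13861) encodes eosinophil peroxidase, the enzyme that makes hypobromous acid. It had 2109, 2109 and 1939 counts among MSC-derived and 153, 321 and 396 among endogenous libraries. The groups were well separated, with endogenous replicate 1 the lowest of all. The level was 35.1 ± 0.862 FPKM (SD, n = 3) against 4.78 ± 1.95 FPKM (SD, n = 3), and the log2 fold change was 2.76 (SE 0.30, edgeR adjusted p = 0.000138). The ratio of both genes differed between libraries. Prg2 had 29.1 to 29.7 times the FPKM of Epx in MSC-derived libraries and 26.0, 17.3 and 14.5 times in endogenous replicates 1 to 3. The 2 groups did not overlap in this ratio, which was not tested.

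Ear1, Ear2 and Ear6 (genes 13586, 13587 and 93719) encode eosinophil-associated ribonucleases, a rodent family that has expanded by gene duplication. Ear2 transcripts are also known from other myeloid cells. The 250 bases before the transcript start of each gene are shown, 5′ to 3′ on the gene's strand, because they show how alike the copies are. They are from RefSeq on GRCm38.p6, where Ear1 lies on the minus strand at chr14:43819640-43819889, Ear2 on the plus strand at chr14:44102404-44102653 and Ear6 on the plus strand at chr14:51853518-51853767. No letters are capitalized.
Ear1: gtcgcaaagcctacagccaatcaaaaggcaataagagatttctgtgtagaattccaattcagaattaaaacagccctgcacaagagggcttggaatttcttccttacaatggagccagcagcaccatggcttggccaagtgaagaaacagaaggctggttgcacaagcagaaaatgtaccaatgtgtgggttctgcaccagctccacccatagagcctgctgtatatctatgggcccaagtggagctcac
Ear2: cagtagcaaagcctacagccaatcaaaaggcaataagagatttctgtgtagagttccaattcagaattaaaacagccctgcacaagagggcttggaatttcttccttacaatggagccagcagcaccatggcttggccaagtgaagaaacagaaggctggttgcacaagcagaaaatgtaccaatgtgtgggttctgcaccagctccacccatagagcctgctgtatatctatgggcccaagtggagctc
Ear6: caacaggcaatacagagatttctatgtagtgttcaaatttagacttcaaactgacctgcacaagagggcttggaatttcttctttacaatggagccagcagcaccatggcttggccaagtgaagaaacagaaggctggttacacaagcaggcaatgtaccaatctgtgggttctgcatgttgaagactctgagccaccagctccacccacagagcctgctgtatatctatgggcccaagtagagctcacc
In pairwise alignment, the windows of Ear1 and Ear2 were the same at 246 of 248 aligned bases (99.2%), those of Ear1 and Ear6 at 212 of 229 (92.6%), and those of Ear2 and Ear6 at 211 of 227 (93.0%). The transcripts of Ear1 and Ear2 in GENCODE were the same at 691 of 713 aligned bases (96.9%), and Ear6 was 89.2% and 89.3% identical to them. Of all 50-base stretches, 28.6% in Ear1, 37.6% in Ear2 and 1.36% in Ear6 also occurred in a transcript of another gene of the family. The genes searched were Ear1, Ear2, Ear6, Ear10, Ear14, Rnase2a and Rnase2b. A read from such a stretch cannot be assigned to 1 gene by sequence, so the division of counts between Ear1 and Ear2 is uncertain. The deposited expected counts were not whole, to within 0.005, in 5 libraries for Ear1 and in all 6 for Ear2, and were whole in all 6 for Ear6.

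Ear2 had the largest difference of the 10 genes. It had 4665, 4213 and 4155 counts among MSC-derived and 168, 127 and 128 among endogenous libraries. All MSC-derived libraries were above all endogenous ones, and Ear2 was the granule gene for which endogenous replicate 1 was not the lowest endogenous library. The level was 351 ± 10.9 FPKM (SD, n = 3) against 11.0 ± 1.92 FPKM (SD, n = 3), and the log2 fold change was 4.87 (SE 0.14, edgeR adjusted p = 1.73e-07). Ear1 had 2525, 2399 and 2195 counts among MSC-derived and 88, 222 and 325 among endogenous libraries, a log2 fold change of 3.42 (SE 0.39, edgeR adjusted p = 0.000181). Ear6 had 1625, 1577 and 1430 counts against 65, 146 and 136, a log2 fold change of 3.67 (SE 0.28, edgeR adjusted p = 1.82e-05). For both genes the groups were separated and endogenous replicate 1 was the lowest library. With the counts of the 3 genes added, which removes the division between them, the log2 fold change was 4.07 (SE 0.20, edgeR adjusted p = 2.01e-06). This sum does not remove the division of reads shared with other genes of the family.

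The division of the Ear counts followed the groups only in part. Ear2 had 1.76 to 1.89 times the counts of Ear1 in MSC-derived libraries, and 1.91, 0.572 and 0.394 times in endogenous replicates 1 to 3. Endogenous replicate 1 therefore had the division of the MSC-derived libraries at a far lower summed count, 321 against 7780 to 8815. The other endogenous libraries had more Ear1 than Ear2, with summed counts of 495 and 589.

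**Figure D2:**
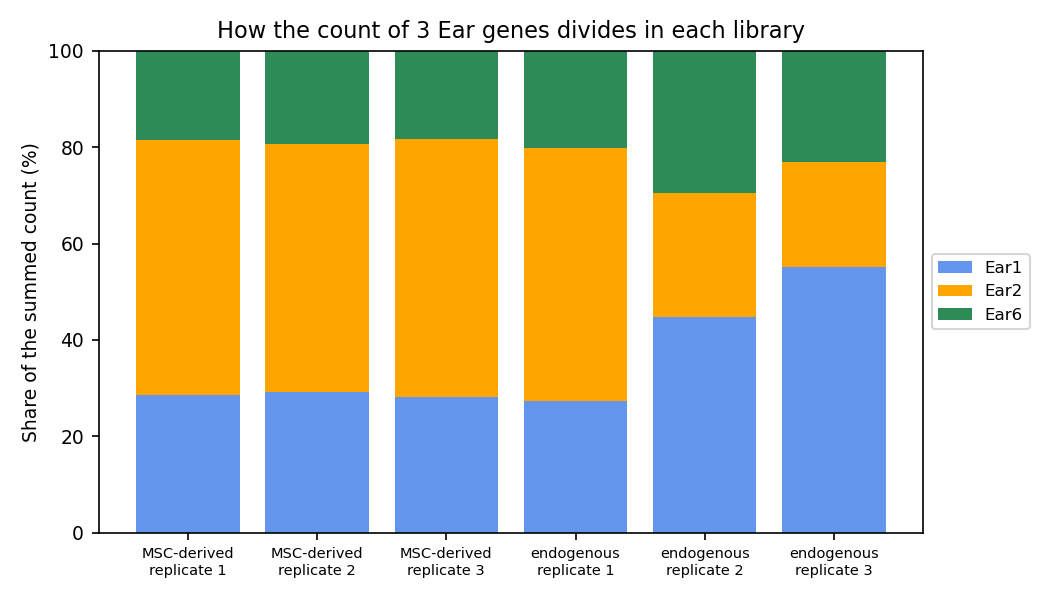
Share of the summed Ear1, Ear2 and Ear6 count taken by each gene, in percent, with 1 bar per library. Ear2 takes 51.4% to 53.4% in the MSC-derived libraries and 52.3% in endogenous replicate 1, but 25.7% and 21.7% in endogenous replicates 2 and 3.

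Of the 5 basophil and mast cell genes, 2 were higher in MSC-derived cells and 3 did not pass the test, with a median log2 fold change of 0.98. The share called higher was near the 31.3% of all genes tested. Their summed count was 1599, 1452 and 1564 in the MSC-derived libraries against 685, 682 and 747 in the endogenous libraries, 0.00622% to 0.00709% of all counts against 0.00287% to 0.00300%. The 2 genes that passed encode proteases known from mouse basophils.

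Prss34 (gene 328780) encodes mast cell protease 11, a tryptase of basophils. It had 1017, 874 and 980 counts among MSC-derived and 419, 487 and 482 among endogenous libraries. The groups were separated, and this gene had the smallest relative spread among the endogenous libraries. The level was 40.9 ± 3.62 FPKM (SD, n = 3) against 18.9 ± 1.19 FPKM (SD, n = 3), and the log2 fold change was 0.98 (SE 0.12, edgeR adjusted p = 0.000314). In endogenous cells Prss34 was the second most abundant member per length after Prg2, above each of Epx, Ear1, Ear2 and Ear6 by its mean FPKM, although its range overlapped that of Ear1.

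Mcpt8 (gene 17231) encodes mast cell protease 8, a serine protease used as a basophil marker in mice. It had 448, 434 and 418 counts among MSC-derived and 93, 154 and 186 among endogenous libraries. The MSC-derived libraries were nearly equal, and all lay above the endogenous ones. The level was 28.4 ± 0.394 FPKM (SD, n = 3) against 9.10 ± 2.82 FPKM (SD, n = 3), and the log2 fold change was 1.52 (SE 0.25, edgeR adjusted p = 0.0013). The FPKM of Mcpt8 over that of Prss34 was 0.650 to 0.763 in MSC-derived libraries and 0.337, 0.494 and 0.608 in endogenous replicates 1 to 3, a difference that was not tested.

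Cpa3 (gene 12873) encodes carboxypeptidase A3, a granule protease of mast cells and of basophils. It had 79, 69 and 106 counts among MSC-derived and 99, 19 and 47 among endogenous libraries. Endogenous replicate 1 fell within the MSC-derived range, and the other endogenous libraries were below it. The log2 fold change was 0.56 (SE 0.60, edgeR adjusted p = 0.446), and without endogenous replicate 1 it was 1.26 (SE 0.38, edgeR adjusted p = 0.00523).

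Fcer1a (gene 14125) encodes the IgE-binding alpha chain of FceRI, and Ms4a2 (gene 14126) encodes its beta chain. Fcer1a had 45, 46 and 39 counts among MSC-derived and 0, 18 and 28 among endogenous libraries. The groups did not overlap, but the endogenous libraries lay far apart and the gene did not pass the test (log2 fold change 1.43, SE 1.03, edgeR adjusted p = 0.26). Ms4a2 had 10, 29 and 21 counts among MSC-derived and 74, 4 and 4 among endogenous libraries. Endogenous replicate 1, which had no Fcer1a count, had the most Ms4a2 of all 6 libraries, whereas the other endogenous libraries had the fewest. The Ms4a2 log2 fold change was -0.53 (SE 1.16, edgeR adjusted p = 0.713), and without that library it was 2.18 (SE 0.72, edgeR adjusted p = 0.0101). Fcer1a without that library was at 0.80 (SE 0.41, edgeR adjusted p = 0.0856). The levels of both chains were low, at most 2.34 FPKM in any library.

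The sequences before the starts of Cpa3, Prss34, Fcer1a and Ms4a2 are shown because each holds the letters AGATAA, which GATA factors are known to bind, on one strand or the other. GATA factors are known regulators of mast cell and basophil genes. These 250-base windows, 5′ to 3′ on the gene's strand, are from RefSeq on GRCm38.p6. They lie at chr3:20242182-20242431 (minus strand) for Cpa3, chr17:25298144-25298393 (plus strand) for Prss34, chr1:173227230-173227479 (minus strand) for Fcer1a and chr19:11623720-11623969 (minus strand) for Ms4a2. Capitals mark AGATAA or its reverse complement TTATCT.
Cpa3: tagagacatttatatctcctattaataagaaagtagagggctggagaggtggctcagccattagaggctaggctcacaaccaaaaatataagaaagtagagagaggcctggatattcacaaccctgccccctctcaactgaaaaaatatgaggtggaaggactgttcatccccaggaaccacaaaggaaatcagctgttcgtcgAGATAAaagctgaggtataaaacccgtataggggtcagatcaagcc
Prss34: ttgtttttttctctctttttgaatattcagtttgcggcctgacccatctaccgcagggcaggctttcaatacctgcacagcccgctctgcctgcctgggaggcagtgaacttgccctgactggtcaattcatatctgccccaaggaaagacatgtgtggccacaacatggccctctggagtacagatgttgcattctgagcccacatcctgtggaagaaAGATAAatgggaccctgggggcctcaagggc
Fcer1a: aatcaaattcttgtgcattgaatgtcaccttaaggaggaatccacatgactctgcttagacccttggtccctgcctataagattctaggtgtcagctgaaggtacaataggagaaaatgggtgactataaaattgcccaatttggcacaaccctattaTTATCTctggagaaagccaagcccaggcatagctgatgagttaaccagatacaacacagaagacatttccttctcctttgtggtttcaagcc
Ms4a2: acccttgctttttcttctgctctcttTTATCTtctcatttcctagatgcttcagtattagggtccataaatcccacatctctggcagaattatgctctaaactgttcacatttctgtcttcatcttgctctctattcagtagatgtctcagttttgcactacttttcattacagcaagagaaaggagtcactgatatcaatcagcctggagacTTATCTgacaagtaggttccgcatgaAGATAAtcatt
RefSeq windows were found for 9 of the 10 genes, all but Prg2, and 4 of the 9 held AGATAA or its reverse complement, against 9.99% of 32841 windows of the same length. The motif lay 40 bases before the start in Cpa3, 25 bases in Prss34, 86 bases in Fcer1a and 218, 31 and 5 bases in Ms4a2. TTGCNNAA, known from sites of C/EBP factors, was searched on both strands and found in Ear1, Ear2 and Fcer1a and in 9.57% of all windows. GAGGAA, known from sites of ETS factors, was found in Mcpt8 and Fcer1a and in 23.3% of all windows. The motifs were chosen with the sequences known, and a match is a description of letters, not of a bound site.

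Without endogenous replicate 1, 9 of the 10 genes were called higher and 0 lower, while 37.8% of 14728 genes tested were called higher and 38.6% lower. The genes gained were Cpa3 and Ms4a2. Endogenous replicate 1 was the lowest of the 3 endogenous libraries for 7 of the 10 genes (Prg2, Epx, Ear1, Ear6, Mcpt8, Prss34 and Fcer1a), and for 47.3% of all genes tested. It was the highest of all 6 libraries for Ms4a2 alone among the 10 genes, and for 28.6% of all genes tested. Among the other mast cell and basophil genes described below, it was the highest of 6 for 3 of 12, which were Slc18a2, Kit and Il1rl1.

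**Figure D3:**
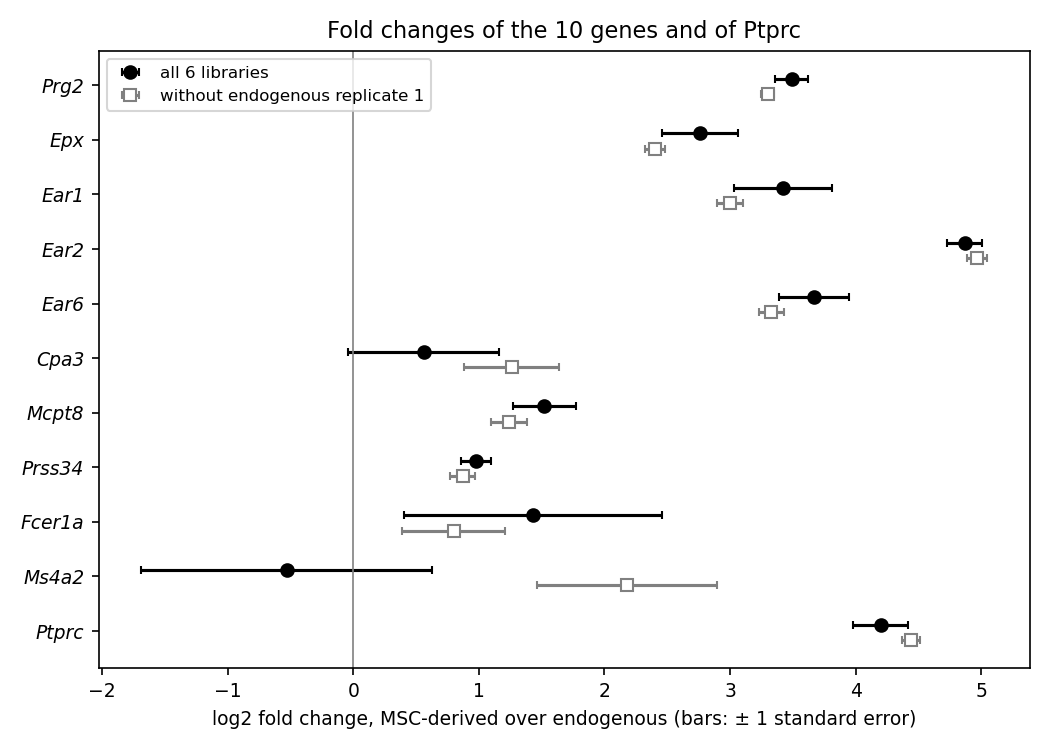
Log2 fold change of MSC-derived over endogenous cells, with bars of 1 SE either way, for the 10 genes and the leukocyte gene Ptprc, with all 6 libraries (filled) and without endogenous replicate 1 (open). The 5 granule genes lie between 2.76 and 4.87 in the full fit, and Ms4a2 changes sign when that library is left out.

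The changes of the 10 genes were also set beside those of leukocyte genes in the same libraries. Ptprc, which encodes the leukocyte surface protein CD45, had 8812, 8926 and 8136 counts among MSC-derived and 604, 340 and 394 among endogenous libraries, a log2 fold change of 4.20 (SE 0.22, edgeR adjusted p = 2.81e-06). Of the 10 genes, Ear2 had a larger log2 fold change than Ptprc and the other 9 had smaller ones, a comparison that was not tested. With the 3 Ear genes summed, because the division between Ear1 and Ear2 is uncertain, the log2 fold change of 4.07 was below that of Ptprc. Per 100 Ptprc counts, 5 of the 10 genes (Epx, Cpa3, Mcpt8, Prss34 and Ms4a2) were lower in every MSC-derived library than in every endogenous library, while 89.7% of all genes tested were. Ear2 was higher without overlap, as were 1.67% of all genes tested, and the other 4 overlapped. Because Ptprc itself rose by a large factor, a gene that stayed level is lower on this scale.

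Prss34 had 9.79 to 12.0 counts per 100 Ptprc counts in MSC-derived libraries and 69.4, 143 and 122 in endogenous replicates 1 to 3. Mcpt8 had 4.86 to 5.14 against 15.4, 45.3 and 47.2, and Epx had 23.6 to 23.9 against 25.3, 94.4 and 101. Prss34 and Mcpt8 were thus lower relative to Ptprc in MSC-derived cells, by more than Epx was. On this scale 89.7% of all genes tested were lower without overlap. Prg2 had 180 to 185 counts per 100 Ptprc counts against 174, 425 and 381, so that endogenous replicate 1 was close to the MSC-derived libraries. Ear2 had 47.2 to 52.9 against 27.8, 37.4 and 32.5. The summed Ear genes had 91.7 to 100 counts per 100 Ptprc counts against 53.1, 146 and 149, so the groups overlapped for the sum. Per 100 counts of the 10 leukocyte markers together, 7 of the 10 genes were lower in MSC-derived libraries without overlap and 0 were higher, against 90.9% and 1.68% of all genes tested. Ear2, at 2.71 to 2.83 against 2.82, 1.88 and 1.61, overlapped on that scale. These ratios were not tested.

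**Figure D4:**
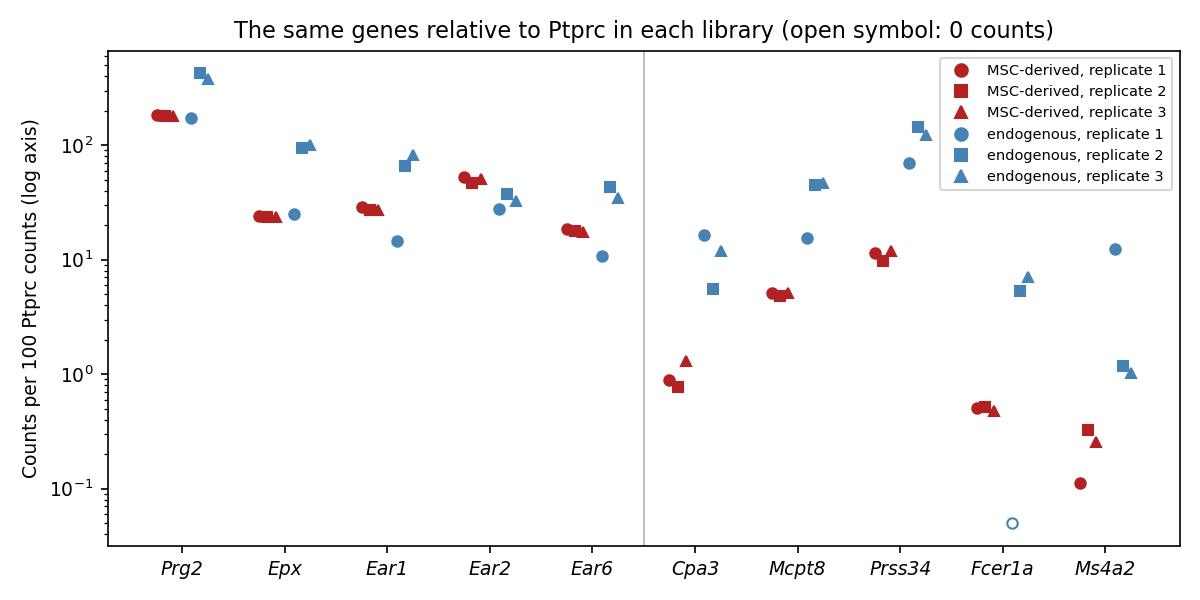
Counts of each gene per 100 Ptprc counts in the same library, on a log axis, with 1 symbol per library (red, MSC-derived; blue, endogenous; open symbol, 0 counts). Ear2 is higher in all MSC-derived libraries, and Prss34, Mcpt8, Cpa3, Epx and Ms4a2 are lower in all of them.

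Companion genes of these cells were taken from 6 lists with 63 genes, of which 57 were in the table and 49 were tested. Of these, 32 were higher in MSC-derived cells and 6 lower, and the median log2 fold change was 2.40. Over all genes tested, 31.3% were called higher and 30.3% lower. Without endogenous replicate 1 the counts were 37 and 7, against 37.8% and 38.6% of all genes tested. Genes with few endogenous counts were tested only because of their MSC-derived counts. Examples are Ccr3, Siglecf, Il5ra, Mcpt2, Hpgds, Ltc4s, Il13, Il5, Ccl8 and Ccl24. Such genes could hardly be called lower.

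All 7 other eosinophil genes tested were higher, against 31.3% of all genes tested, with a median log2 fold change of 3.27. Of these, Ccr3, Siglecf and Il5ra had enough counts to be tested only through the MSC-derived libraries, so they could hardly be called lower. Ccr3, the eotaxin receptor, had 14414, 13944 and 12434 counts among MSC-derived and 1, 16 and 17 among endogenous libraries, a log2 fold change of 10.14 (SE 0.37, edgeR adjusted p = 4.41e-07). It rose more than any of the 10 genes and reached 189 ± 5.59 FPKM (SD, n = 3) in MSC-derived cells, between the levels of Ear6 and Ear1. Siglecf, a surface lectin of eosinophils and some macrophages, had 150, 186 and 131 counts against 0, 16 and 23 (log2 fold change 3.51, SE 0.91, edgeR adjusted p = 0.0116). It lost its call without MSC-derived replicate 2 (log2 fold change 3.37, adjusted p = 0.0539). Il5ra, the alpha chain of the interleukin 5 receptor, had 33, 15 and 29 counts against 3, 7 and 1 (log2 fold change 2.68, SE 0.79, edgeR adjusted p = 0.0198). Its call was lost without MSC-derived replicate 1 (log2 fold change 2.52, adjusted p = 0.0948), MSC-derived replicate 3 (2.54, adjusted p = 0.0912) or endogenous replicate 3 (2.24, adjusted p = 0.0552). The counts of Siglecf and Il5ra were thus far below those of Ccr3 and Prg2 in the same libraries.

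Of 12 other mast cell genes measured, 7 had enough counts to be tested. Of these, 4 were higher, 0 were lower and 3 did not pass the test, against 31.3% of all genes tested called higher. Mcpt2, Hpgds and Ltc4s had enough counts to be tested only through the MSC-derived libraries, so they could hardly be called lower. They were among the 4 genes called higher. The chymase gene Cma1 had 2, 0 and 5 counts among MSC-derived libraries and was at 0 in each endogenous library, and the tryptase gene Tpsb2 had 1 count in MSC-derived replicate 2 and 0 elsewhere. Both are defining genes of connective tissue mast cells and had at most 5 counts in any library. Mcpt4, a further chymase of such cells, was not analysed here. Kit had 142, 169 and 168 counts against 220, 90 and 67 (log2 fold change 0.27, SE 0.46, edgeR adjusted p = 0.636), and without endogenous replicate 1 it was 0.91 (SE 0.24, edgeR adjusted p = 0.0018). Mcpt2, a protease of mucosal mast cells, had 22, 19 and 26 counts against 0 in each endogenous library. That was at least 7.71-fold higher, taking 3 counts in each endogenous library as the floor. Hpgds, the prostaglandin D2 synthase of mast cells that other hematopoietic cells also express, had 5511, 5277 and 5095 counts against 6, 15 and 17 (log2 fold change 8.62, SE 0.22, edgeR adjusted p = 1.15e-07). Hdc, the enzyme that makes histamine, which neutrophil precursors also express, had 12600, 11348 and 11280 counts against 1232, 1506 and 2005 (log2 fold change 2.82, SE 0.16, edgeR adjusted p = 3.6e-06). The genes of this list that rose were thus the enzymes Hpgds, Hdc and Ltc4s and the protease Mcpt2, not Kit.

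Of 5 other basophil genes, 2 were higher and 3 did not pass the test, again near the share of all genes tested called higher (31.3%). Il13, which was called higher, was tested only because of its MSC-derived counts, as were some genes that did not pass. Il3ra, the alpha chain of the interleukin 3 receptor, had 868, 722 and 730 counts against 317, 429 and 419 (log2 fold change 0.92, SE 0.15, edgeR adjusted p = 0.00126), close to the change of Prss34. Il13 had 45, 25 and 41 counts against 0, 6 and 5 (log2 fold change 3.22, SE 0.91, edgeR adjusted p = 0.0169). It did not pass without MSC-derived replicate 1 (log2 fold change 3.12, adjusted p = 0.0787), 2 (3.45, adjusted p = 0.0511) or 3 (3.10, adjusted p = 0.0788). Cd200r3, an activating receptor of basophils and mast cells, had 34, 44 and 32 counts against 39, 16 and 22, with overlapping groups (log2 fold change 0.44, SE 0.51, edgeR adjusted p = 0.486). Like Cpa3, Ms4a2 and Kit, it had more counts in endogenous replicate 1 than in the other endogenous libraries.

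Fcer1g, which encodes the gamma chain of FceRI, rose, while Fcer1a and Ms4a2 did not pass the test, and the difference between the chains was not tested. It had 46743, 43813 and 40539 counts against 566, 1151 and 1205, a log2 fold change of 5.42 (SE 0.29, edgeR adjusted p = 2.91e-06). Its level was 3962 ± 88.5 FPKM (SD, n = 3) in MSC-derived cells, while Fcer1a was at 2.22 ± 0.12 FPKM (SD, n = 3) and Ms4a2 at 0.343 ± 0.168 FPKM (SD, n = 3). The gamma chain is also part of Fc receptors of macrophages and neutrophils. Of the 12 genes of IgE receptor signaling tested, Fcer1g among them, 10 were higher and 1 lower. The shares over all genes tested were 31.3% and 30.3%. Lcp2, an adaptor used in several leukocytes, rose (log2 fold change 5.33, SE 0.23, edgeR adjusted p = 1.06e-06), and Plcg1, a phospholipase found in many tissues, fell (log2 fold change -1.52, SE 0.19, edgeR adjusted p = 0.000275).

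Of 10 genes tested that encode factors that recruit these cells or let them grow, 4 were higher and 3 lower, shares near the 31.3% and 30.3% of all genes tested. Il5, Ccl8 and Ccl24, among those called higher, were tested only because of their MSC-derived counts, so they could hardly be called lower. Ccl8 had 838, 665 and 723 counts against 0, 14 and 17 (log2 fold change 6.08, SE 0.62, edgeR adjusted p = 9.59e-05). Ccl24, an eotaxin and so a ligand of Ccr3, had 34, 32 and 19 counts against 0, 0 and 1, a ratio of 87.6 with a 95% exact interval of 15.3 to 3500 that covers counting error only. Il33, an alarmin that acts on mast cells and basophils, was lower, with 48, 30 and 51 counts against 171, 130 and 114 (log2 fold change -1.76, SE 0.36, edgeR adjusted p = 0.00394). Kitl, the ligand of Kit, was lower too, with 1270, 1253 and 1229 counts against 4757, 3003 and 3266 (log2 fold change -1.63, SE 0.18, edgeR adjusted p = 0.000162). The groups were separated for Ccl8, Ccl24, Il33 and Kitl, as the rule for naming them required.

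Of 8 transcription factors of these lineages, 5 were higher and 2 lower. The shares over all genes tested were 31.3% and 30.3%, so the share called lower was near that of all genes. Spi1, a factor of all myeloid cells, rose by a log2 fold change of 3.99 (SE 0.13, edgeR adjusted p = 2.93e-07), and Cebpe, needed for granule genes of neutrophils and eosinophils, by 3.95 (SE 0.14, edgeR adjusted p = 4.04e-07). Gata1, a factor of eosinophils, mast cells and erythroid cells, had 418, 392 and 399 counts against 86, 101 and 161 (log2 fold change 1.73, SE 0.24, edgeR adjusted p = 0.00058). Gata2, a factor of mast cells and basophils, had 256, 187 and 221 counts against 226, 430 and 394. Its log2 fold change was -0.73 (SE 0.26, edgeR adjusted p = 0.0443), the groups overlapped, and the call was lost in 11 of 17 alternatives. These included each fit without 1 library other than endogenous replicate 1, where the log2 fold change lay between -0.80 and -0.58 and the adjusted p between 0.0875 and 0.151. Runx1, which acts in blood and cartilage, was lower, at a log2 fold change of -1.87 (SE 0.18, edgeR adjusted p = 6.13e-05).

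**Figure D5:**
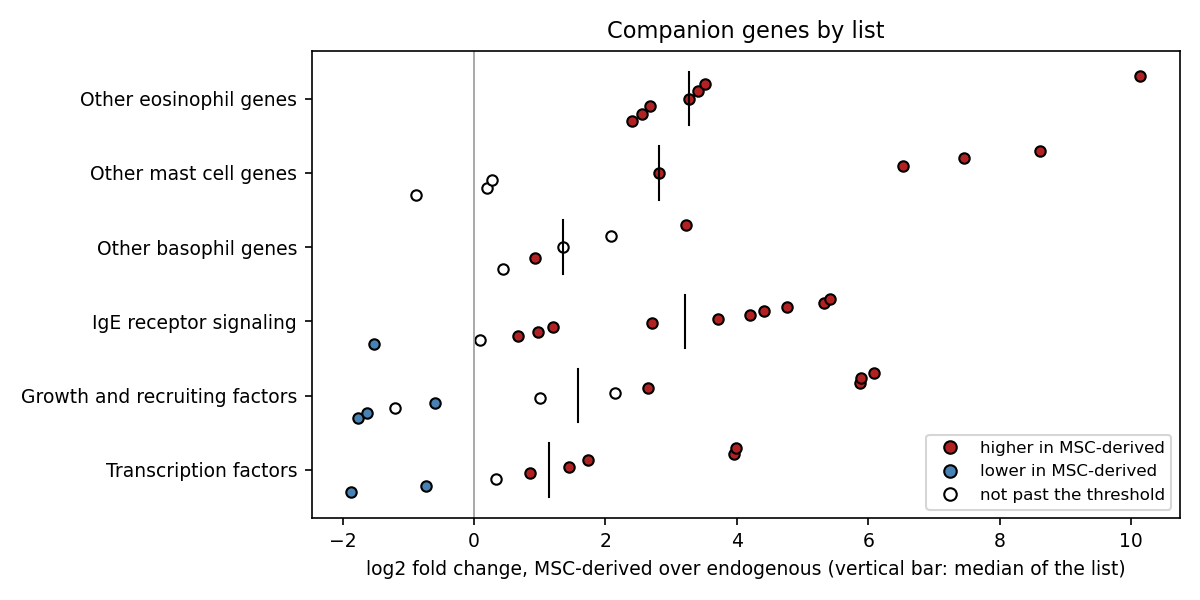
Log2 fold change of MSC-derived over endogenous cells for the tested companion genes, with 1 point per gene, by list (red, higher; blue, lower; open, not past the adjusted p of 0.05) and the median of each list as a vertical bar. All 7 other eosinophil genes are higher, while 3 of 7 other mast cell genes and 3 of 5 other basophil genes did not pass the test. Some genes, such as Ccr3, Siglecf and Il5ra, were tested only because of their MSC-derived counts.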

How the data were processed

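RNA of sorted Tomato+ cells was sequenced by the authors from Illumina TruSeq libraries. The submitters' processing notes name genome build mm9, Bowtie2 2.2.5 and RSEM 1.2.12. The deposited table gives, for each of the 6 libraries, the expected count of each gene from RSEM, of which 20.6% were not whole, the FPKM and TPM made by the authors from them, and a signal column of counts that the authors normalized between libraries. TPM and the normalized signal were not used, and 8 columns of pooled values or group means were left out, as were columns of the authors' own comparison (fold changes and p-values).

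Expected counts were rounded to whole numbers and tested in edgeR 4.0.16 (TMM, filterByExpr, quasi-likelihood test without block, 14289 genes, Benjamini-Hochberg), checked on simulated data first. In the simulated data few genes changed and both groups had the same spread. The check therefore does not cover the many changed genes and unequal spread of these libraries. FPKM served for levels and for comparing genes. Alternatives were DESeq2 1.42.0 (the tool the study used), limma 3.58.1 on log2 FPKM at pseudocounts of 1 and 0.1, 4 other scalings, 2 other filters, a stricter threshold of 0.001, a replicate block, leaving out each library, and summing the Ear genes, the last added after the data were seen. Replicate numbers come from the sample titles. Sequence work used Python 3.11.15 and Biopython 1.88 with RefSeq (GRCm38.p6) and GENCODE M21 transcripts, not the authors' gene set. No coordinates of the deposited build were used.

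The members and lists were chosen with earlier results of these data known. Named were all 10 members, the 2 largest increases and 2 largest decreases per companion list among separated called genes, and a fixed set (Siglecf, Ccr3, Il5ra, Kit, Fcer1g, Cd200r3, Hdc, Cma1, Tpsb2, Mcpt4, Gata1, Gata2 and Ptprc). Slc18a2, Il1rl1 and Ltc4s were named after their values were seen. Intervals and limits for 0 counts cover counting error only.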

Additional observations from a re-analysis of the deposited data

How the results depend on the processing

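The number of members called higher was 7 in the main analysis and lay between 6 and 9 over 17 alternatives: 9 without endogenous replicate 1, 8 with limma on log2(FPKM + 1), where Fcer1a was gained, and 6 at an adjusted p of 0.001, where Mcpt8 was lost. The number called lower was 0 in all of them. Companion genes called higher numbered 23 to 37 against 32, and those called lower 3 to 7 against 6, with 3 at an adjusted p of 0.001. The replicate numbers did not pair the libraries (correlations of deviations from the group means 0.013, 0.00222 and 0.0178 for numbers 1 to 3). A second calculation, over all pairs of libraries, gave other values near 0 (-0.0146, -0.0257 and 0.014). In it, MSC-derived and endogenous libraries correlated best with their own number only for replicate 3. With a replicate block, 7 members were higher and 0 lower, and 30 companion genes were higher and 5 lower, and the calls of Il5ra (log2 fold change 2.81, adjusted p = 0.0739), Il13 (3.42, adjusted p = 0.055) and Gata2 (-0.69, adjusted p = 0.1) were lost. The sign of Ms4a2 was positive with the replicate block (log2 fold change 0.88), with limma on log2(FPKM + 0.1) (0.35) and without endogenous replicate 1 (2.18), and negative without endogenous replicate 2 or 3 (-1.04 each). Kit was at -0.05 without endogenous replicate 3 and at 0.91 without endogenous replicate 1. For these reversals, where an omitted library did not define the setting, the cause was not tested. Over the alternatives, log2 fold changes were 3.30 to 3.63 for Prg2, 2.40 to 3.02 for Epx, 3.0 to 3.84 for Ear1, 4.78 to 5.0 for Ear2, 3.33 to 3.86 for Ear6, 1.24 to 1.71 for Mcpt8 and 0.87 to 1.11 for Prss34. The median of all genes moved by 0.116 with library size only, by -0.108 with DESeq2, which also changed the tool and tested 17848 genes, and by 0.149 with limma on log2(FPKM + 0.1), which also changed the measure. These 7 genes stayed positive. Depth limits Fcer1a, Ms4a2, Il5ra, Il13, Cma1 and Tpsb2, which had few counts.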

Other observations

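Of the other companion genes, Il5, the growth factor of eosinophils, had 23, 41 and 20 counts among MSC-derived and 0, 0 and 1 among endogenous libraries, a ratio of 86.6 with a 95% exact interval of 15.1 to 3460 that covers counting error only. Prg3, a homolog of major basic protein, had 775, 760 and 663 counts against 71, 66 and 59 (log2 fold change 3.41, SE 0.16, edgeR adjusted p = 1.43e-06). Its change was close to that of Prg2, and Prg2 had 25.3 to 26.5 times its FPKM in MSC-derived libraries and 17.5, 26.0 and 31.3 times in endogenous replicates 1 to 3. Ltc4s, which makes leukotriene C4 in eosinophils, basophils and mast cells, had 944, 828 and 789 counts against 0, 11 and 15 (log2 fold change 6.53, SE 0.57, edgeR adjusted p = 4.1e-05). Il1rl1, the receptor of interleukin 33, had 129, 131 and 111 counts against 414, 138 and 92, with endogenous replicate 1 the highest library (log2 fold change -0.88, SE 0.54, edgeR adjusted p = 0.196). Il5, Prg3, Ltc4s and Il1rl1 were chosen after their values were seen.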
